A study of Homo sapiens with 6 samples.

Results

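Coding peaks in short exons are the intervals of the DDX5 immunoprecipitation whose summit, the point of highest signal, lay in the coding sequence of a protein-coding gene, in an exon shorter than 1000 nt. They numbered 6902, 4970 and 19463 in replicates 1, 2 and 3, of 23715, 23651 and 45832 intervals on the main chromosomes, or 33.6% of all intervals of the 3 lists together. Each interval was represented by its summit with the highest −log10 q, and exons were those of the Ensembl-canonical transcript of each gene in GENCODE version 44. The lists came from 3 RNA immunoprecipitations with a DDX5 antibody from nuclear extracts of RH30, a single established alveolar rhabdomyosarcoma line that carries the PAX3-FOXO1 fusion. The labels call them biological replicates without saying whether they came from separate cultures, so the spread between lists may be technical. The 3 INPUT samples of the series, nuclear RNA of the same cells taken without antibody, were not analysed here, and the libraries do not record which strand was read.

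DDX5 is an RNA helicase that takes part in transcription, splicing and microRNA processing. Most human coding exons are short and are separated by far longer introns. The spliceosome cuts at the donor edge, where an exon meets the start of the following intron, and at the acceptor edge, where an intron ends and the next exon begins. Nuclear RNA holds precursor transcripts, in which introns are still present, and spliced transcripts that have not yet left the nucleus. An interval that runs past an exon edge covers positions annotated as intron in the canonical transcript, and the question asked of these peaks was how often that happened.

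The edges that the results turn on are shown with 15 exonic bases in capitals and 15 intronic bases in lower case, on the strand of the gene, from GRCh38. The first set holds the donor and acceptor edges of introns that an interval covered from end to end in every list.
MBD6 donor of exon 10, chr12:57528546-57528575, plus strand: TCTGAGGACCTTAAGgtgagtgcagagtgc
MBD6 acceptor of exon 11, chr12:57528651-57528680, plus strand: tccatcttttctcagGTGCCCCCGGGAGTA
ATXN2L donor of exon 17, chr16:28834401-28834430, plus strand: ACCGGGGAGCAAAAGgtgagcagggctggg
ATXN2L acceptor of exon 18, chr16:28834491-28834520, plus strand: ctcctcctcttccagGCTCCCTTCCTCCGC
MYO1C donor of exon 28, chr17:1467973-1468002, minus strand: ACGCCAACCTGACCGgtcagccagggtcca
MYO1C acceptor of exon 29, chr17:1467896-1467925, minus strand: gccctctcccctcagGAATCTCTGTCAGCA

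The second set holds edges of 3 of the highest-ranked exons, at which an interval ran into an intron of 585 to 3418 nt in every list and ended inside it.
NFIC donor of exon 8, chr19:3452652-3452681, plus strand: CAGCAACCTGGACCGgtgagttgggcgggg
HIPK2 acceptor of exon 12, chr7:139596984-139597013, minus strand: gttttctcattacagAAATGTCTCCACCTG
EP300 acceptor of exon 14, chr22:41149746-41149775, plus strand: tttttattttaacagGCACAAATGTCTAGT

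Most of these intervals crossed into an intron. At least 1 intronic base was covered by 72.4%, 76.8% and 81.6% of them in replicates 1, 2 and 3. The mean share was 76.9% ± 4.60 (SD, n = 3). Among all summits placed in a single canonical exon that borders an intron, whatever its length or class, that share was 30.4%, 33.6% and 52.5%. The acceptor edge alone was crossed by 27.1% ± 2.70, the donor edge alone by 21.9% ± 1.92 and both edges by 27.9% ± 9.18 (SD, n = 3). Introns of the canonical transcript can hold exons of other transcripts of the same gene. With bases in no exon of any transcript counted, 67.4% ± 5.17 still crossed (SD, n = 3). Exons bordering no intron held 28, 11 and 35 of the peaks, among them 4 on the mitochondrial genome in replicate 1 and 0 in the other lists.

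They crossed more often than coding peaks in exons of 1000 nt or more. The short-exon share was 76.9% ± 4.60, against 18.4% ± 4.36 for the long exons, a difference of 58.5 ± 0.252 percentage points, present in 3 of 3 lists (SD, n = 3, exact two-sided sign-flip permutation test, p = 0.25). With 3 lists this test cannot give a p below 0.25. Exon length limits how near an edge can lie to a summit. The direction was therefore partly fixed in advance, and the test gives no separate support for it. Peaks in the 3' UTRs of canonical transcripts crossed in 3.51% ± 1.75 of cases (SD, n = 3). The difference between short and long exons was smaller among summits near an edge. Among summits within 50 nt of an intron, 95.5% ± 0.957 crossed in short exons and 88.5% ± 5.54 in long exons, a difference of 7.03 ± 4.71 points in the same direction in 3 of 3 lists (SD, n = 3, exact sign-flip permutation test, p = 0.25). Only 66, 53 and 147 summits in long exons lay that near an edge in replicates 1, 2 and 3. The limit applied to the nearest edge alone, and in a short exon the other edge can lie within reach too. In short exons, both edges were crossed by 36.8% ± 7.76 of intervals with summits 0 to 24 nt from an edge. At 25 to 49 nt it was 33.3% ± 10.2 (SD, n = 3). The remaining difference was therefore also partly fixed in advance. On either side of the length limit, the share was 25.9% ± 8.19 in exons from 900 to under 1000 nt and 31.5% ± 8.72 in exons from 1000 to under 1100 nt (SD, n = 3).

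The crossing share followed exon length within the short exons. It was 98.98% ± 0.909 in exons under 100 nt, 93.0% ± 0.891 from 100 to under 150 nt and 84.1% ± 2.09 from 150 to under 200 nt (SD, n = 3). It was lower still in longer exons, at 68.7% ± 4.54 from 200 to under 300 nt, 46.9% ± 9.95 from 300 to under 500 nt and 33.3% ± 10.8 from 500 nt up (SD, n = 3). The lists lay close together in exons under 200 nt and spread apart above that length. In exons of 500 nt and more the shares were 22.9%, 32.5% and 44.4% in replicates 1, 2 and 3. An interval longer than its exon must leave it. Such intervals made up 34.3%, 46.7% and 55.2% of the peaks and 58.6% ± 10.3 of the crossing ones (SD, n = 3). Intervals no longer than their exon crossed in 57.96%, 56.5% and 58.9% of cases in replicates 1, 2 and 3, so the lists differed less in this subset than in the whole.

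**Figure D1:**
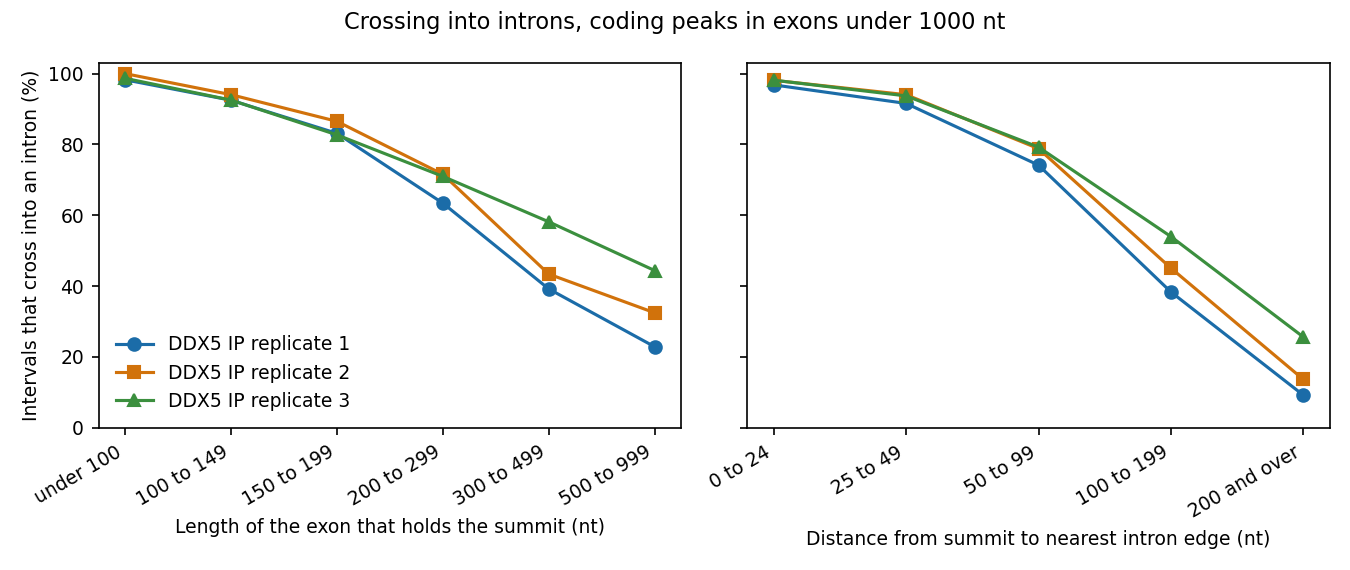
Share of intervals that crossed into an intron (vertical axis, %) by the length of the exon that held the summit (left, nt) and by the distance from the summit to the nearest intron (right, nt), with 1 line for each DDX5 immunoprecipitate. All 3 lines fall with exon length, and the means over the lists go down to 33.3% in the longest exons shown.

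Crossing intervals were wider and sat in shorter exons. Their median width was 166, 188 and 191 nt in replicates 1, 2 and 3, against a mean over the lists of 131 ± 10.4 nt for intervals that stayed in the exon (SD, n = 3, exact sign-flip permutation test, p = 0.25). Their exons had median lengths of 165, 165 and 152 nt, against 270, 303 and 221 nt (exact sign-flip permutation test, p = 0.25). Both differences had the same direction in 3 of 3 lists, and the list medians of crossing intervals did not overlap those of the others. Crossing was defined by the interval's ends and the exon's edges. These directions were therefore partly fixed in advance, and the tests give no separate support for them. The fold enrichment, a ratio over the peak caller's background made by the authors, had medians of 2.43, 2.80 and 2.75 for crossing intervals, against 2.71, 2.99 and 3.07 for the others. The difference was −0.14 ± 0.04 on the log2 scale (SD, n = 3, exact sign-flip permutation test, p = 0.25). It was 0.0493 with fold enrichments of at least 4, where no list kept the direction. It was 0.0213 ± 0.0520, with 2 of 3 lists still lower for crossing intervals (SD, n = 3, exact sign-flip permutation test, p = 1), when peaks were left out that had exactly the same fold and p as other peaks of their list, in sets of 10 or more. Such repeated values were carried by 62.2% ± 6.19 of crossing and 73.6% ± 9.67 of non-crossing intervals (SD, n = 3). The median −log10 q went the other way from the fold enrichment and was higher for crossing intervals. It was 4.19, 5.45 and 6.12 for them in replicates 1, 2 and 3, against 3.98, 4.51 and 4.54 for the others.

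The intervals reached only a short way into the introns. At crossed edges the median reach was 36, 41 and 38 nt in replicates 1, 2 and 3, and the 95th percentile was 72, 90 and 73 nt. The narrowest interval of each list was 88, 99 and 85 nt wide. A reach shorter than that width was found at 96.99%, 96.5% and 96.2% of the 6321, 5157 and 23174 crossed edges. Bases in the introns that border the exon of the summit made up 21.5% ± 2.30 of all bases in these intervals (SD, n = 3). Introns farther along were not counted. Interval ends gathered at the edge and again farther into the intron, with a lower rise inside the exon. At acceptors, 7.26%, 7.35% and 7.68% of them lay within 5 nt of the edge itself, and 25.6%, 26.5% and 35.5% lay 30 to 60 nt into the intron in replicates 1, 2 and 3. At donors, 6.70%, 6.48% and 7.99% lay within 5 nt of the edge and 23.2%, 24.4% and 32.7% at 30 to 60 nt into the intron. From 100 to 150 nt into the intron the share was 0.675%, 0.898% and 0.428% at acceptors and 0.601%, 1.23% and 0.537% at donors. The part of read or fragment length in this reach was not tested, since the deposited lists give neither and the settings of the peak caller are not given in the sources used here.

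**Figure D2:**
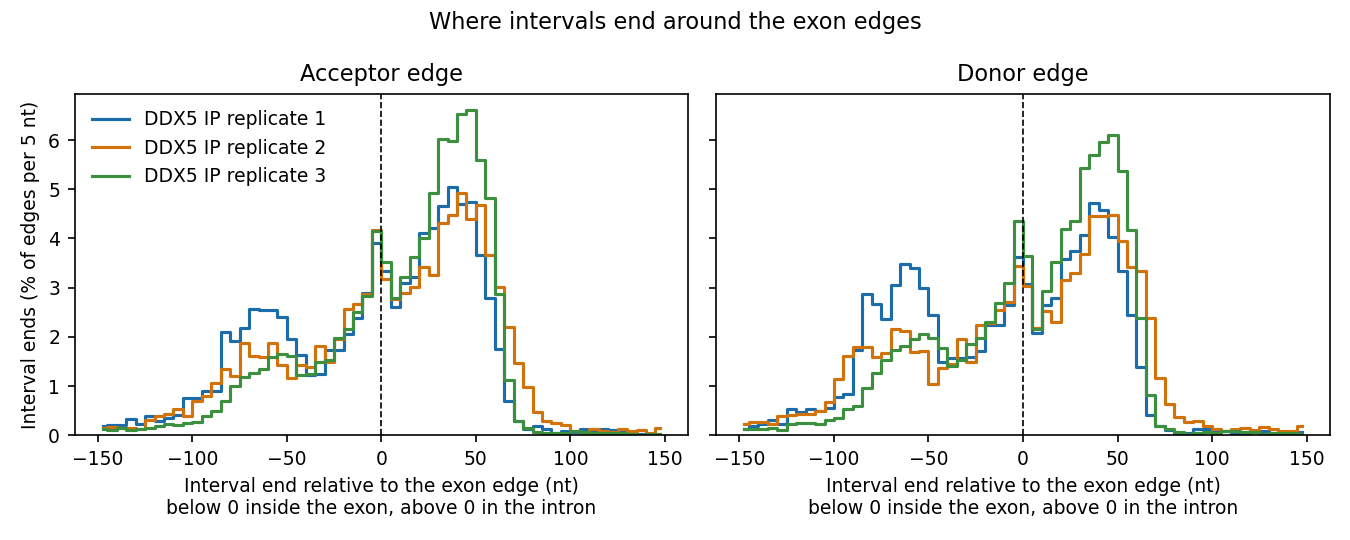
Position of interval ends around acceptor and donor edges (horizontal axis, nt, below 0 inside the exon and above 0 in the intron) as the share of edges per 5 nt (vertical axis, %), 1 line for each DDX5 immunoprecipitate. Each line has a narrow peak at the edge, a broad one highest between 35 and 50 nt into the intron, a lower one inside the exon and few ends beyond 100 nt into the intron.

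Acceptor edges were crossed more often than donor edges of the same exons. Among the 6455, 4614 and 18279 peaks in exons with an intron on both sides, the acceptor was crossed by 51.4%, 57.0% and 64.7% and the donor by 43.5%, 50.7% and 57.9% in replicates 1, 2 and 3. The difference was 6.98 ± 0.843 percentage points, higher at the acceptor in 3 of 3 lists (SD, n = 3, exact two-sided sign-flip permutation test, p = 0.25). The summits also lay slightly nearer the acceptor, at a median of 88, 89 and 80 nt from it, against 92, 94 and 83 nt from the donor. The median reach past a crossed edge differed by less than the spread between lists, with 38.7 ± 2.52 nt at acceptors and 38.3 ± 3.51 nt at donors (SD, n = 3).

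Introns at crossed edges were somewhat shorter than those at uncrossed edges of the same kind of exon. Their median length was 1427, 1392 and 1597 nt in replicates 1, 2 and 3, against 1613, 1688 and 1676 nt, a difference of −0.17 ± 0.10 on the log2 scale (SD, n = 3, exact sign-flip permutation test, p = 0.25). In exons shorter than 300 nt it was −0.04, and in intervals of at most 200 nt −0.09, each in 2 of 3 lists. The edges of introns under 100 nt were crossed in 61.9% ± 3.77 of cases, and those of introns of 5000 nt and over in 50.6% ± 7.54 (SD, n = 3). By list the shares were 57.8%, 65.2% and 62.6% for the shortest introns and 44.3%, 48.5% and 58.9% for the longest. Mean shares in the length bins from 100 to under 5000 nt lay between 54.5% and 55.6%. The shortest introns were above each of these bins in replicates 1 and 2. In replicate 3 they were level with introns of 500 to under 1000 nt, at 62.6%, and of 1000 to under 5000 nt, at 62.3%. GC content of the intronic 100 nt next to the edge was 44.2% ± 1.17 at crossed and 44.2% ± 0.713 at uncrossed edges (SD, n = 3, exact sign-flip permutation test, p = 1). The lists did not share a direction, with differences of 0.455, 0.190 and −0.520 percentage points. Without peaks of repeated fold and p values the difference was 2.27 ± 0.531 points, higher at crossed edges (SD, n = 3).

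The donor sites were of the ordinary kind. In replicates 1, 2 and 3, between 98.9% and 99.3% of crossed donors began with GT. The motifs GTAAGT and GTGAGT, read at the donor on the strand of the gene only, are the common human donor sequences and do not overlap each other. Either of them began the intron at 25.8% ± 0.314 of crossed donors and 24.6% ± 0.627 of uncrossed ones (SD, n = 3). Across all 174961 donors of short coding exons in canonical transcripts the share was 28.0%. Among the edges printed above, the donor of MBD6 exon 10 carries GTGAGT, and so does that of NFIC exon 8. A match describes these letters and does not say how well a site is spliced.

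Exons with such a peak were longer than the other short coding exons of the same genes. Their median length was 180, 179 and 161 nt in replicates 1, 2 and 3, against 123, 126 and 116 nt for the others, a difference of 51.7 ± 6.11 nt in 3 of 3 lists (SD, n = 3, exact sign-flip permutation test, p = 0.25). They held 51.6% ± 0.91 GC, against 49.3% ± 0.204 (SD, n = 3, exact sign-flip permutation test, p = 0.25). Of exons under 100 nt in these genes, 4.05% ± 3.23 held a summit, and of exons of 500 nt and more, 42.6% ± 4.27 did (SD, n = 3). Longer exons offer more sequence, and per 1000 nt of exon the count of exons held was highest in the middle range. It was 0.549 ± 0.441 under 100 nt, 1.59 ± 0.64 from 150 to under 200 nt, 1.55 ± 0.451 from 200 to under 300 nt and 0.604 ± 0.0585 from 500 nt up (SD, n = 3).

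**Figure D3:**
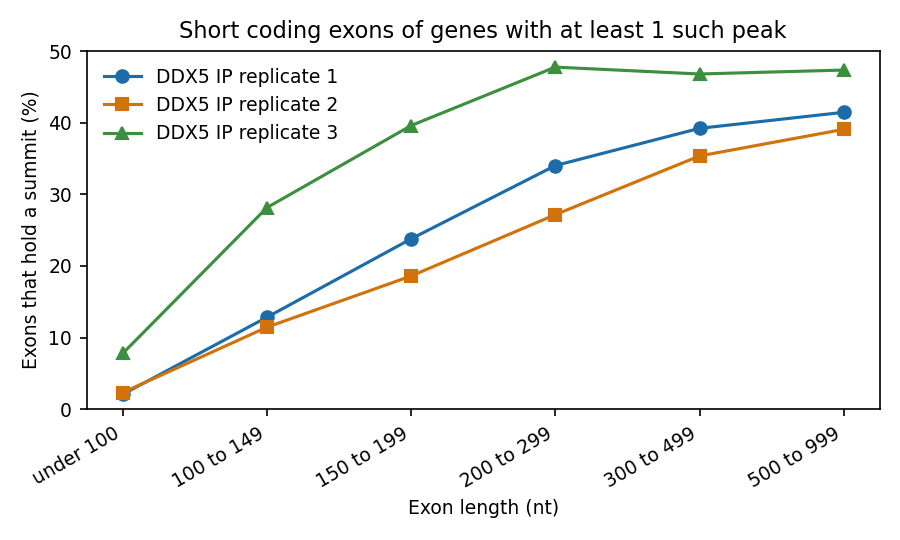
Share of short coding exons that held a summit (vertical axis, %) by exon length (horizontal axis, nt), among the genes with at least 1 such peak in the list, 1 line for each DDX5 immunoprecipitate. Under 100 nt the shares are 2.06%, 2.31% and 7.77% in replicates 1, 2 and 3, and from 200 to under 300 nt they lie between 27.2% and 47.8%.

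Along the coding sequence the lists did not share a trend. Relative to the short-exon coding bases of the same genes, 5 successive stretches of equal length held 0.971 ± 0.0812, 0.998 ± 0.0336, 0.986 ± 0.0397, 1.01 ± 0.0409 and 1.04 ± 0.0805 times their part of the bases (SD, n = 3). From the first stretch to the last, the ratios were 0.877, 0.980, 1.02, 1.06 and 1.08 in replicate 1. They were 1.01, 0.978, 0.943, 0.991 and 1.09 in replicate 2. They were 1.02, 1.04, 0.995, 0.985 and 0.948 in replicate 3. Replicate 1 was thus lowest at the start and highest at the end, and replicate 3 was lowest at the end. First exons held 3.35% ± 0.357 of the peaks, and last exons 3.22% ± 0.722 (SD, n = 3).

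The 3 lists shared a core of exons. A total of 21721 exons held a peak in at least 1 list, 5031 in exactly 2 and 2158 in every list, which is 9.94%. The 2158 were 31.6%, 43.8% and 11.2% of the exons of replicates 1, 2 and 3. Replicate 3 held 76.8% of the exons of replicate 1 and 79.7% of those of replicate 2. Replicates 1 and 2, the shorter lists, shared 2337 exons whatever replicate 3 held, 34.3% of the exons of replicate 1 and 47.5% of those of replicate 2. Across shared exons, which are not independent replicates, Spearman's rho of the fold enrichments was 0.533 between replicates 1 and 2 (n = 2337), 0.598 between 1 and 3 (n = 5242) and 0.586 between 2 and 3 (n = 3926). Summits in a shared exon lay a median of 17 to 19 nt apart, and interval starts 22 to 24 nt apart. Of the exons found in every list, 1371 (63.5%) had a best interval that crossed in all 3 lists and 176 (8.16%) in none of them.

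Exons found in every list were ranked by their −log10 q within each list. Exon 7 of ATN1 (chromosome 12, 6938481 to 6939177, 697 nt), the gene of the transcriptional corepressor atrophin-1, had folds of 3.49, 10.5 and 8.89 and passed only its donor, by 5, 50 and 38 nt. Exon 8 of NFIC (chromosome 19, 3452482 to 3452666, 185 nt), which encodes a nuclear factor I transcription factor, had folds of 2.86, 8.16 and 4.65. Its interval passed both edges in every list, the acceptor by 47, 59 and 57 nt and the donor by 62, 75 and 66 nt, where the introns are 3342 and 1096 nt long. Exon 12 of HIPK2 (chromosome 7, 139596717 to 139596998, 282 nt), which encodes a nuclear kinase of the stress response, had folds of 4.99, 8.66 and 8.61. It passed the acceptor by 35, 47 and 56 nt. Exon 14 of the acetyltransferase gene EP300 (chromosome 22, 41149761 to 41150198, 438 nt) had folds of 3.18, 6.80 and 4.15 and passed the acceptor by 39, 61 and 48 nt. In all 4 of these exons the reach was at most 75 nt.

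Of the other highest-ranked exons, PRRC2A exon 12 had a fold enrichment of 8.57 ± 4.04, AUTS2 exon 7 of 6.56 ± 3.02, BAZ2A exon 3 of 4.95 ± 0.945 and SDC3 exon 3 of 4.82 ± 1.43 (SD, n = 3). BAZ2A encodes a subunit of the remodelling complex that silences ribosomal RNA genes, and SDC3 a cell-surface proteoglycan. SP2 exon 3, of a Sp-family transcription factor gene, was at 4.77 ± 1.87 and NCOA6 exon 7, of a nuclear receptor coactivator gene, at 3.77 ± 0.977 (SD, n = 3). At SDC3 the acceptor was passed by 175 nt in replicate 3 and by 0 nt in replicates 1 and 2. At NCOA6 it was passed by 39, 128 and 30 nt. ATP6V0C exon 3, of a proton pump subunit gene, was the one exon of the highest-ranked that did not cross in every list. Its fold enrichment was 3.24, 8.56 and 7.23, and the interval stayed in the exon in replicate 1 and covered the whole preceding intron of 139 nt in replicates 2 and 3.

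**Figure D4:**
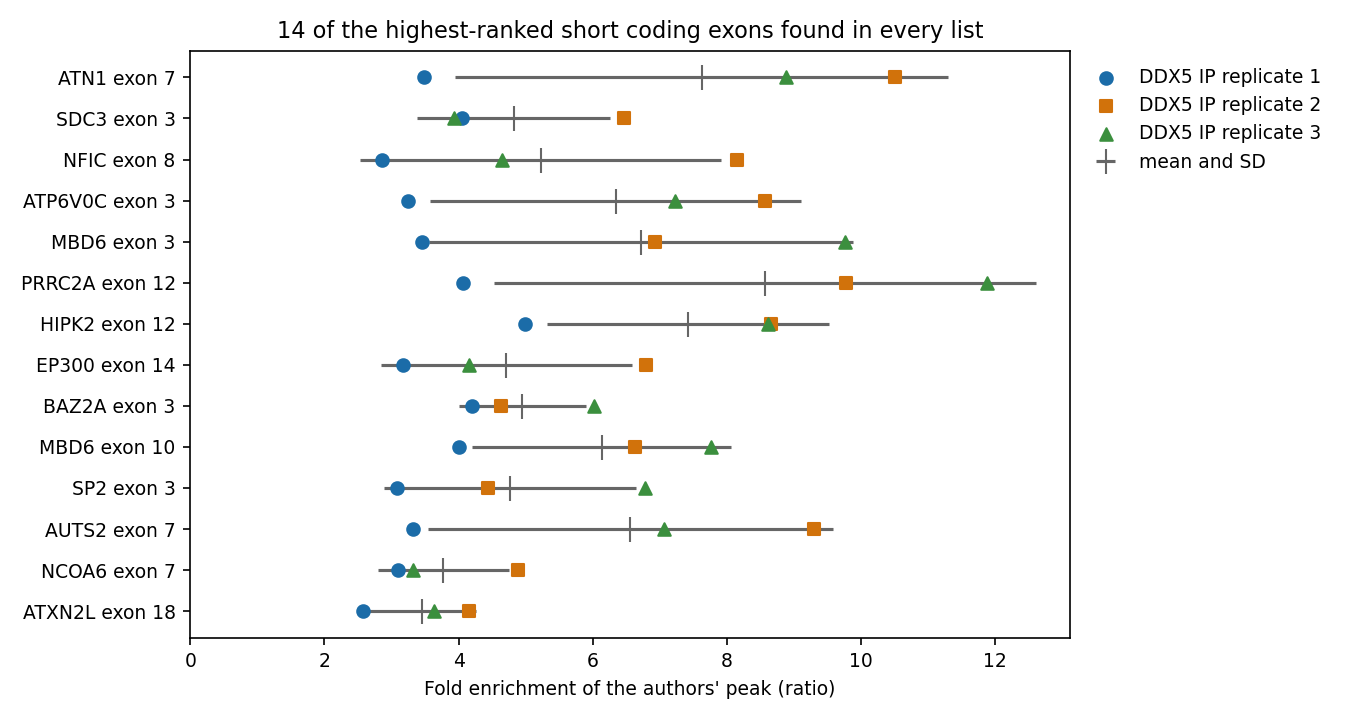
Fold enrichment of the authors' peak (horizontal axis, ratio) in 14 of the highest-ranked short coding exons found in every list, with 1 point for each DDX5 immunoprecipitate and a line for the mean and SD. Replicate 1 lies lowest in every exon but SDC3 exon 3, and PRRC2A exon 12 spans 4.07 to 11.9.

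Some intervals covered an intron next to the exon of their summit from end to end. They numbered 218, 207 and 866 in replicates 1, 2 and 3, or 3.92% ± 0.678 of the peaks (SD, n = 3). The introns covered were short, with median lengths of 92, 97 and 95 nt, and 99.6% ± 0.339 were under 200 nt (SD, n = 3). In all 3 lists the same 69 introns were covered, 6.78% of the 1017 covered in any list. Their lengths ran from 73 to 187 nt with a median of 91 nt, and 69.6% were under 100 nt. Among the donor-side introns of all short coding exons the median length was 1498 nt and 5.03% were under 100 nt. Only an intron shorter than the interval can be covered whole. The short length of the covered introns was therefore partly fixed in advance. Whether such an interval holds reads from inside the intron, or reads of the exons on both sides, cannot be told apart from these lists.

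MBD6, a gene of a methyl-CpG-binding domain protein that associates with a histone H2A deubiquitinase, held the highest-ranked of them. The 105 nt intron between its exons 10 and 11 (chromosome 12, 57528561 to 57528665) was covered in every list. The folds were 4.00, 6.63 and 7.76 in replicates 1, 2 and 3. None of the intron is exonic in another transcript of the gene. The 187 nt intron before exon 3 of MBD6 (57524093 to 57524279) was covered at folds of 3.46, 6.94 and 9.76, and all of it is exonic in other transcripts of the gene. MYO1C, which encodes a myosin motor, had its 77 nt intron after exon 28 (chromosome 17, 1467911 to 1467987) covered at folds of 4.33, 6.25 and 9.18. None of this intron is exonic in another transcript of MYO1C. The 78 nt intron after exon 47 of KMT2D, a histone H3 lysine 4 methyltransferase gene, was covered at 3.24, 4.00 and 4.67, and it is exonic in another transcript.

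ATXN2L, a gene of a stress granule protein related to ataxin-2, had 3 introns next to the exon of a summit covered in every list. The 90 nt intron after exon 17 (chromosome 16, 28834416 to 28834505) lay in an interval with folds of 2.58, 4.15 and 3.64, and the 84 nt intron after exon 14 in one with folds of 2.61, 3.48 and 3.49. The 90 nt intron after exon 19 lay in an interval with folds of 2.78, 8.30 and 5.39, and it is exonic in another transcript. Each list had 3 intervals here, over exons 14 and 15, exons 16 to 18 and exons 19 and 20. The middle interval, with its summit in exon 18, also covered the intron after exon 16, which does not border that exon. Counted from the start of exon 14, exon 15 ended at 450 nt and the first interval at 490, 513 and 496 nt in replicates 1, 2 and 3. Exon 16 began at 1007 nt and the next interval at 969, 943 and 953 nt. The intervals thus ended soon after the edge of the longer intron in between. In replicate 1 the last interval ended at 2226 nt, just inside exon 20, which began at 2220 nt.

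**Figure D5:**
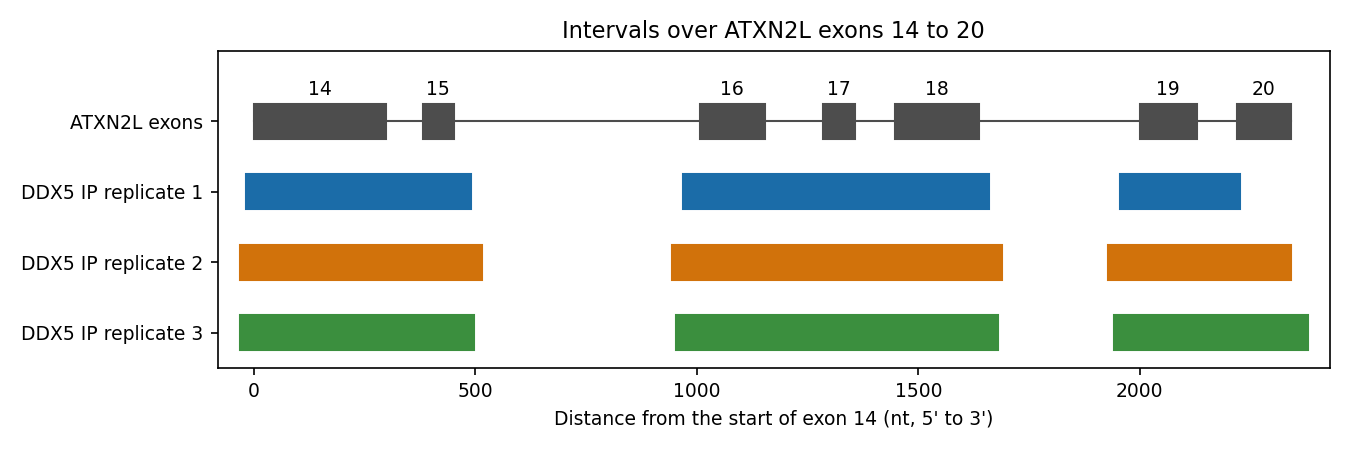
Exons 14 to 20 of ATXN2L (top, grey boxes) and the intervals of the 3 DDX5 immunoprecipitates (coloured bars) along the gene, as distance from the start of exon 14 (nt, 5' to 3'). Each list has 3 intervals, over exons 14 and 15, exons 16 to 18 and exons 19 and 20, with most of the longer introns after exons 15 and 18 uncovered.

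A reach of 100 nt or more into an intron that was not covered to its end was found at few edges, chosen after the values were seen. There were 33, 84 and 134 such edges in replicates 1, 2 and 3, and 240 in all, of which 229 were in 1 list, 11 in 2 and 0 in every list. GLI1, a transcription factor gene of the hedgehog pathway, held 2 of the 11 and was likewise picked out afterwards. The donor of its exon 9 was passed by 10, 145 and 150 nt in replicates 1, 2 and 3. The donor of its exon 10 was passed by 133 and 168 nt in replicates 2 and 3, and replicate 1 had no peak there. The donor of exon 4 was passed by 95, 72 and 141 nt. The other edges among the 11 were in BCAM, C2CD3, CEBPZ, EIF3C, IMMT, ISG20L2, LIMA1, MAPK7 and RBM25. EIF3C has a near-identical copy, so its reads can be shared. At BCAM, ISG20L2, LIMA1 and MAPK7 the shorter of the 2 reaches lay in exons of other transcripts, and the longer was not checked.

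The genes with the most exons found in every list had coding sequences of 5880 to 15549 nt. HUWE1, a ubiquitin ligase gene, had 22 such exons of 80 short coding exons. NAV1, a cytoskeletal regulator gene, had 18 of 31, and UBR4, a further ubiquitin ligase gene, 18 of 106. The dynein heavy chain gene DYNC1H1 had 17 of 76, the acetyltransferase gene CREBBP 16 of 30, the lipoprotein receptor gene LRP1 16 of 89 and the non-muscle myosin gene MYH9 16 of 39. Their intervals crossed in means of 87.1% ± 8.55 for NAV1 to 98.2% ± 3.04 for CREBBP, beside 76.9% ± 4.60 for all these peaks (SD, n = 3). CREBBP crossed in 100%, 94.7% and 100% of its 18, 19 and 26 intervals. No test was made of these differences, and exon lengths differ between genes.

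Gene lists chosen with earlier results of these data known were described by counts alone. Over all genes with such a peak in any list, 21.3% had at least 1 exon held in every list, and over all exons the share was 9.94%. Large cytoskeletal and motor protein genes had 17 of 22 genes and 74 of 510 exons (14.5%). MYH9 exon 31 was at fold enrichments of 3.29, 6.89 and 4.21 in replicates 1, 2 and 3, SPTBN1 exon 14 at 2.76 ± 0.72 and DYNC1H1 exon 38 at 3.03 ± 0.465 (SD, n = 3). SR proteins and hnRNPs, which bind precursor RNA and guide splicing, had 6 of 17 genes and 21 of 68 exons (30.9%), with SRRM1 exon 14 at 3.68 ± 1.06, HNRNPUL1 exon 13 at 4.36 ± 1.23 and SRRM2 exon 2 at 3.93 ± 0.309 (SD, n = 3). Of these 21 exons SRRM1 held 8, HNRNPUL1 6 and SRRM2 4, so the share rests mostly on few genes. The core spliceosome had 10 of 25 genes but 20 of 216 exons (9.26%), with PRPF8 exon 16 at 5.44 ± 2.91 and SF3A1 exon 3 at 4.58 ± 2.34 (SD, n = 3). Collagens had 3 of 12 genes and 8 of 41 exons (19.5%), with COL5A1 exon 3 at 3.07 ± 0.592, COL15A1 exon 3 at 4.60 ± 2.27 and COL4A2 exon 47 at 2.52 ± 0.617 (SD, n = 3). COL5A1 alone held 6 of these 8 exons.

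Muscle differentiation and sarcomere genes had 10 of 20 genes and 21 of 306 exons (6.86%), with MEF2D exon 7 at 5.35 ± 0.66, TTN exon 347 at 3.92 ± 1.84 and NEB exon 93 at 2.84 ± 0.817 (SD, n = 3). The TTN and NEB intervals crossed in 0 of 3 lists. DEAD-box helicases had 4 of 25 genes and 6 of 86 exons (6.98%), among them DDX18, DDX24 and DDX39A. Cell cycle and replication genes had 8 of 32 genes and 10 of 172 exons (5.81%), with the helicase gene MCM7 at 3.69 ± 1.47 in exon 11 and the phosphatase gene CDC25B at 4.40 ± 2.24 in exon 10 (SD, n = 3). Cytosolic ribosomal protein genes had 3 of 16 genes and 5 of 32 exons (15.6%), with RPL3 exon 3 at 2.15 ± 0.109 (SD, n = 3). Such genes have many processed copies, so how their reads were placed is uncertain. Genes known for detained or retained introns had 1 of 15 genes and 8 of 38 exons (21.1%), all in SRRM1, which the list of SR proteins and hnRNPs holds too.

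The crossing share varied between these lists within broad limits. It was 93.0% ± 3.32 for ribosomal protein genes, 90.1% ± 2.39 for SR proteins and hnRNPs, 88.1% ± 5.19 for the core spliceosome and 88.1% ± 10.3 for genes known for retained introns (SD, n = 3). It was 83.6% ± 6.76 for cytoskeletal genes, 78.7% ± 12.2 for DEAD-box helicases, 74.3% ± 15.1 for collagens and 74.1% ± 18.7 for cell cycle genes (SD, n = 3). Muscle genes had 65.2%, 61.0% and 68.2% in replicates 1, 2 and 3, below the 72.4%, 76.8% and 81.6% of all these peaks in the same lists. Some of these shares rest on few intervals. Ribosomal protein genes had 13, 10 and 29 in replicates 1, 2 and 3, and genes known for retained introns 11, 12 and 37. Collagens had 14, 14 and 40, and DEAD-box helicases 23, 18 and 78. Exon length was not matched between the gene lists, and its part in the crossing shares was not tested.

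As a class the peaks were narrower than the most similar peaks of the series. Their median width was 154, 178 and 179 nt in replicates 1, 2 and 3, against 208, 237 and 263.5 nt for coding peaks in long exons, a difference of −65.8 ± 16.4 nt in 3 of 3 lists (SD, n = 3, exact sign-flip permutation test, p = 0.25). Their median fold enrichment was 2.51, 2.83 and 2.83, against 2.52, 2.92 and 2.90 in long exons, a difference of −0.03 ± 0.02 on the log2 scale in 3 of 3 lists (SD, n = 3, exact sign-flip permutation test, p = 0.25). Against 3' UTR peaks the width differed by −60.0 ± 12.8 nt in 3 of 3 lists and the log2 fold by −0.03 ± 0.04, with the same sign in 2 of 3 (SD, n = 3, exact sign-flip permutation test, p = 0.25 and 0.5). No fold enrichment here can be read as enrichment over INPUT, since the control library of the peak calls is not given in the sources used here.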

How the data were processed

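RNA that came down with DDX5 from RH30 nuclei was sequenced in 3 samples. Per the submitters' processing notes, reads were handled on the build GRCh38 with MACS2 2.2.7.1, STAR 2.6.1d, bcl2fastq 2.20, cutadapt 1.11, SAMtools 1.10 and FastQC 0.11.8, and parameters are not given in the sources used here. The deposited fold enrichment is a ratio made by the authors' peak caller for each summit. The deposited p-value and q-value are on the −log10 scale, and the deposited score, derived from the q-value, was not used. All of them describe 1 peak each and were compared within a list. Sequencing depth is unknown.

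Intervals were placed on canonical transcripts of GENCODE version 44 with Python 3.11.15, pandas 2.3.3, NumPy 2.4.6 and pysam 0.24.0. Summits in the coding sequence of several genes (89, 69 and 242) were left out. Shares were computed within each list and compared over the 3 lists by exact permutation (two-sided, flipping signs). The computation of reach was checked on artificial intervals placed at known distances from an edge, which gives no expected reach for these data. Members, gene lists and tests were chosen with earlier results of these data known. Named exons were the 15 found in every list, the 10 crossing in every list and the 8 introns covered in every list with the highest mean percentile of −log10 q within a list, the 8 genes with the most exons found in every list and up to 3 genes of each of 9 gene lists with 270 entries, all matched. Some of them are not reported here. Alternatives covered stricter q and fold, equal list lengths, shared pairs, each replicate left out, every summit, other limits on exon length, reach and width, other transcripts and the GC window.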

Additional observations from a re-analysis of the deposited data

How the results depend on the processing

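Over 126 repeated computations, 94 stayed within the limits used here (1 SD of the lists for a share, 1.5 times for a count, the same direction for a difference), 24 moved further and 8 turned. The share of intervals crossing was 72.2% with folds of at least 4, 82.7% without shared pairs of fold and p, 84.2% in exons under 300 nt, 71.5% with at least 10 and 26.7% with at least 50 intronic bases, 67.4% with bases in no exon and 71.3% in intervals of at most 200 nt. It ran from 74.6% to 79.2% with a replicate left out. The share covering a whole intron was 5.97% with q under 1e-05, 6.11% with folds of at least 4, 4.73% with equal list lengths, 5.63% without shared pairs, 6.71% with every summit and 3.01% with bases in no exon. Exons found in every list numbered 753, 63 and 796, and exons crossed in every list 507, 33 and 541, with q under 1e-05, folds of at least 4 and without shared pairs. With at least 50 intronic bases 315 were crossed. With a replicate left out, 2337 to 5242 exons were held and 1533 to 3666 crossed, which follows from asking for fewer lists. The mean log2 fold difference turned to 0.0493 with folds of at least 4 and to 0.0213 without shared pairs, where 2 of 3 lists kept its direction. The GC difference had no direction shared by the lists in the main computation. It turned to −0.287 with folds of at least 4 and −0.394 with at least 10 intronic bases, each positive in 1 of 3 lists. In exons under 300 nt it was −0.755 and with at least 50 intronic bases −0.248, each positive in 0 of 3 lists. With a replicate left out it ran from −0.165 to 0.323. Without shared pairs it was 2.27 and with equal list lengths 0.236, each positive in 3 of 3 lists. The cause was not tested. The difference between short and long exons, and that between acceptors and donors, kept their direction under every alternative run, the first at 7.03 to 65.8 points and the second at no less than 2.19. The direction of the first was partly fixed in advance by exon length. No paired analysis was possible because the lists used here are all of the DDX5 immunoprecipitation, so replicate numbers pair no 2 groups of samples. Classes of peaks were compared within each list.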
